A study of Rattus norvegicus with 36 samples.

Results

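Night/day differential expression in the pineal glands of Sham-operated rats was measured with 6 RNA-Seq libraries, which are all the libraries labelled Sham among the 36 of the study. There were 3 from midnight (ZT19) and 3 from mid-day (ZT7). The rats were Sprague-Dawley pups of both sexes operated on at 5 days after birth (postnatal day 5) by a sham procedure, in which the superior cervical ganglia (SCG) were exposed and bluntly dissected and then left in place. They were kept under a cycle of light and dark and killed at 40 days of age. Each library came from a pool of glands, so a replicate is a pool and not an animal. The other groups used here for comparison were the Control rats without surgery, rats whose ganglia were cut off from their central input (DCN) and rats whose ganglia were removed (SCGX), all at the same age and the same times, with DCN and SCGX surgery also on postnatal day 5. Glands cultured for 48 h and then exposed for 6 h to 1 µM norepinephrine (NE), to 500 µM dibutyryl cyclic AMP (DBcAMP) or to neither (Untreated) were also used, and the NE and DBcAMP glands share the same Untreated controls. The cultured glands came from female rats that were older than 40 days, so these animals differed from the Sham rats in sex and age.

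The pineal gland makes the hormone melatonin at night. Sympathetic nerves from the SCG release norepinephrine onto its cells in darkness, which raises cyclic AMP and switches on the transcription of many genes. A sham operation leaves that nerve supply in place, so the Sham group shows what surgery alone, without loss of the nerves, leaves of the daily rhythm. The deposited files list genes by Ensembl identifier and do not pair the identifiers with names. Genes are therefore described by their size of change, level, length and behaviour in the other groups, and identifiers are given only for the 2 genes that rose most and the 2 that fell most.

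Between 14107309 and 18504240 read-pairs per Sham library were counted on genes, and a read-pair was seen in any of them for 21750 of the 29516 listed genes. Replicate libraries differed by more than sampling noise in every pair, so each counts as 1 replicate. The coefficient of variation that edgeR estimated in common for all genes was 28.2% in Sham and 14.4% in Control. Levels are given as CPM, which are read-pair counts scaled to library size after TMM normalization. Sham night replicate 3 stood apart from the others, as described below, and without it the coefficient was 19.7%. Counts of genes are therefore given with and without that library.

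Many genes differed between midnight and mid-day, and the large differences were mostly increases at night. At an adjusted-p under 0.001 by edgeR's quasi-likelihood test, 265 genes (1.65%) were higher at night and 100 (0.623%) were lower, together 2.27% of the 16050 genes tested. Of these, 172 genes (1.07%) also differed by more than 4-fold and are called strong here. The strong genes comprised 153 that were higher at night (0.953% of tested genes) and 19 that were lower (0.118%). Without night replicate 3, 211 of 15827 genes (1.33%) were strong, 191 of them higher at night (1.21%) and 20 lower (0.126%), and 167 genes were strong both with and without that library. All 153 genes higher at night were among the 191. Of the 19 lower genes, 14 remained strong. Leaving out any other library lowered the number of strong genes, to 38, 23 and 30 without day replicate 1, 2 or 3 and to 100 and 83 without night replicate 1 or 2. The number at an adjusted-p under 0.001 was then 40, 23, 32, 140 and 106 in the same order. Each such fit rests on 5 libraries.

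With all 6 libraries, small decreases were more frequent than small increases, and without night replicate 3 they were less frequent. At an adjusted-p under 0.05, 3304 genes (20.6% of those tested) differed, 1501 of them higher (9.35%) and 1803 lower (11.2%) at night. There were 2032 without day replicate 1, 1671 without day replicate 2, 2151 without night replicate 2 and 3068 without night replicate 3, the last with 1843 higher (11.6%) and 1225 lower (7.74%), together 19.4%. Among the lower genes 73.7% had changed by less than 2-fold, against 53.9% of the higher genes. Changes under 2-fold comprised 809 higher and 1328 lower genes, or 1074 and 826 without night replicate 3. More than 32-fold changes were found for 26 higher and 2 lower genes, or 22 and 5 without night replicate 3. The balance of the 2 directions at this threshold depended on scaling and on night replicate 3. The share that was higher at night was 45.4% with TMM normalization, 57.2% with median-of-ratios size factors and 34.2% with library size alone, and it was 60.1% without night replicate 3. Among the strong genes the share higher at night stayed between 86.1% and 90.5% under the same 4 settings. The median log2 fold change of all tested genes was -0.04 with TMM and -0.11 with library size alone, so a gene's change is read relative to that median.

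**Figure D1:**
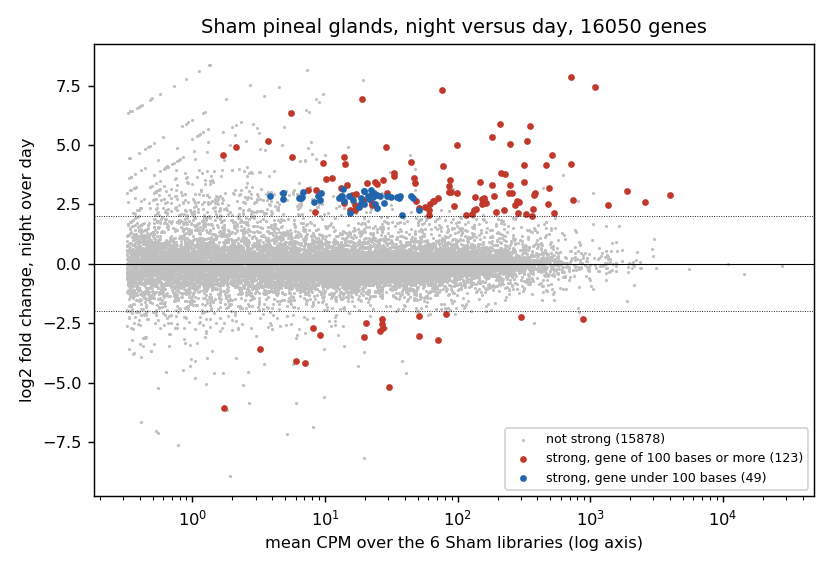
Log2 fold change at night over day (vertical axis) against mean CPM over the 6 Sham libraries (log axis) for 16050 genes, where dotted lines mark 4-fold changes. The 153 strong genes higher at night outnumber the 19 lower ones, and the 49 strong genes shorter than 100 bases form a narrow band.

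The strong genes that were higher at night took up a much larger part of the RNA at night. In the day libraries the 153 genes held 0.604%, 0.608% and 0.614% of all counted read-pairs. In the night libraries they held 4.94%, 4.83% and 4.28%. The lowest of these 3 values belonged to night replicate 3, and the day and night ranges were far apart. The 19 genes lower at night went the other way, from 0.258%, 0.291% and 0.304% by day to 0.049%, 0.0599% and 0.0432% at night. These genes defined the sets, so the shares are descriptive. The median level of the strong genes that rose was 7.05 CPM by day and 61.5 at night, beside 16.4 and 15.9 for all tested genes. The median of the strong genes that fell went from 45.3 to 6.46 CPM.

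Calls were more frequent among abundant genes. Among the 4013 tested genes with the lowest mean level, at most 2.81 CPM, 5.48% passed an adjusted-p of 0.05. Among the 4013 with the highest level, from 57.1 CPM upward, 33.2% passed. The first set contained 2 strong genes that were higher and 1 that was lower, and the second contained 64 and 4. In the most abundant set 737 genes were higher and 594 lower at an adjusted-p under 0.05, whereas in the next 4012 genes, from 16.4 to 57.0 CPM, 398 were higher and 718 lower.

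The gene with the largest increase was ENSRNOG00000012878. Its day libraries had 144, 72 and 68 read-pairs and its night libraries had 24498, 24715 and 18189. This was 6.02 ± 2.46 CPM by day and 1420 ± 170 CPM at night (mean ± SD, n = 3 pools each). The log2 fold change was 7.88 with a standard error of 0.32 and an edgeR adjusted-p of 3.92e-05. The 2 groups of libraries did not overlap, which was a condition for naming a gene here. It held for 16.1% of all tested genes in this direction. Scaled to its length of 5577 bases the gene was rare by day, at 0.843 to 1.61 RPKM (read-pairs per length and library size), and ranked between 240 and 318 among the tested genes at night.

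The second, ENSRNOG00000011182, was more abundant. It had 188, 227 and 159 read-pairs by day and 37745, 34775 and 28725 at night. Its mean was 12.3 ± 2.26 CPM by day and 2150 ± 284 at night (n = 3 each), with a log2 fold change of 7.45, a standard error of 0.21 and an edgeR adjusted-p of 1.82e-05. At night its RPKM was 1510, 1200 and 1300 in the 3 libraries, which placed it at rank 19, 26 and 23 of the tested genes, whereas its day ranks were 8041 to 9186. This gene alone held between 0.188% and 0.236% of the read-pairs counted at night.

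Of the genes that fell, ENSRNOG00000025698 had the largest change but low counts. There were 53, 47 and 59 read-pairs in the day libraries and 0, 1 and 1 in the night libraries. Its fitted log2 fold change was -6.09 with a standard error of 0.58 and an edgeR adjusted-p of 0.000904. From the pooled 159 day and 2 night read-pairs the day level was 84.7 times the night level, with an exact 95% interval of 23.1 to 705 that covers counting error only. Without night replicate 3 its adjusted-p was 0.00103, so it was no longer strong.

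ENSRNOG00000008942 fell from a higher level. Its day libraries had 1464, 567 and 759 read-pairs and its night libraries 19, 34 and 24. The means were 59.1 ± 27.5 CPM by day and 1.61 ± 0.34 at night (n = 3 each). The log2 fold change was -5.18 with a standard error of 0.41 and an edgeR adjusted-p of 0.000417, and without night replicate 3 it was -5.12 with an adjusted-p of 0.00103, which is also above the threshold for a strong gene. The day pools differed more among themselves than the night pools did. That the groups did not overlap was again a condition of the choice, and it held for 23.4% of all tested genes in this direction.

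**Figure D2:**
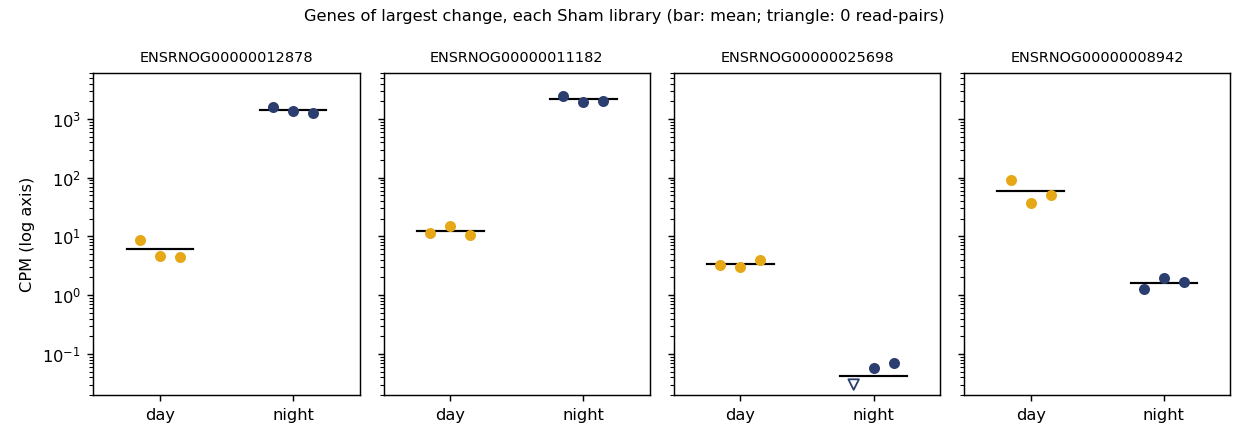
CPM (log axis) of the 4 genes in each Sham library, with points for the 3 day and 3 night pools, a bar for the mean and an open triangle for the library with 0 read-pairs. Day and night pools are separate for each gene by the rule of choice, and ENSRNOG00000011182 rises from 12.3 to 2150 on average.

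Some genes were nearly silent in one phase. There were 7 genes with at most 3 read-pairs in every day library and at least 30 in every night library, where their counts reached 578. All 7 were also night/day genes in Control at an adjusted-p under 0.05, where 35.3% of all tested genes were called. Only 3 of the 7 were strong in Sham by the test. The reverse pattern was found for 1 gene, ENSRNOG00000025698.

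Many of the strong genes that rose were very short. Gene lengths, which were recovered from the deposited RPKM values, showed that 49 of the 153 strong genes that rose (32%) were annotated at 72 to 97 bases. Of the 272 tested genes shorter than 100 bases, 18% were strong and higher, against 0.765% of the 12414 genes of 1000 bases or more. No short gene was strong and lower. At an adjusted-p under 0.05, 124 of the 272 short genes were higher and 5 lower, so that 47.4% were called, beside 20.6% of all genes. Among the 280 genes of 100 to under 200 bases the share called was 10%, with 14 genes in each direction. This length class was chosen after its values had been seen and was not tested as a set.

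The short genes changed by nearly the same amount. The log2 fold changes of the 49 ranged from 2.04 to 3.15 with a median of 2.82 and an SD across genes of 0.23. For the 104 longer strong genes that rose they ranged from 2.01 to 7.88 with a median of 2.99 and an SD of 1.25. The short genes were not abundant in counts, with mean levels of 0.922 to 17.7 CPM by day and 6.79 to 84.4 at night. Summed over the 49 genes, the Sham day pools had 244.5, 266.3 and 266.5 CPM in ascending order and the night pools 1440, 1742 and 2161. Night and day pools did not overlap in this sum, which follows from the choice of the genes and is descriptive. All 49 stayed strong without night replicate 3, when their median log2 fold change was 2.99. Whether some of these genes lie within the same longer RNA, or are near-identical copies that share reads, was not analysed here, so their levels are uncertain and the 49 are not 49 independent observations.

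**Figure D3:**
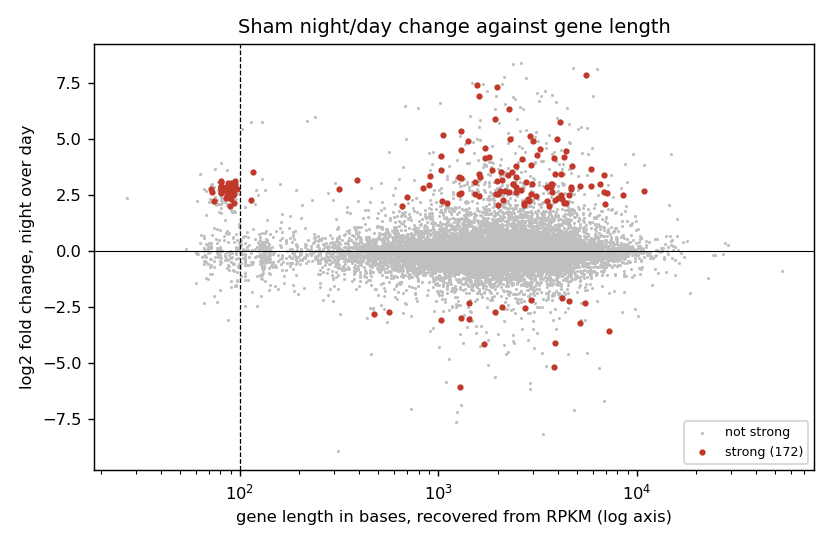
Log2 fold change at night over day in the Sham glands (vertical axis) against gene length in bases (log axis), with the dashed line at 100 bases. Of the 172 strong genes, 49 lie in a tight cluster left of the line, with log2 fold changes of 2.04 to 3.15.

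In the Control libraries, which share no library with Sham, the same short genes rose again. All 49 were called higher there at an adjusted-p under 0.05, with log2 fold changes of 2.23 to 3.39 and a median of 2.99. At that threshold 18.2% of all genes tested in Control were higher at night, and so were 138 of the 268 short genes. Of the 268 short genes tested in Control, 104 were strong and higher (38.8%) and none was strong and lower. In cultured glands all 49 rose with NE, by a median of 1.44 on the log2 scale, and with DBcAMP, by a median of 1.31. The 2 cultured comparisons share the Untreated libraries. In DCN glands the 49 had a median night/day log2 difference of 0.54 and values from 0.06 to 0.80. None was called, but none of all 15928 genes tested in DCN was called either. In SCGX glands the median was 0.06 and none was called, where 1.85% of all tested genes were called. Their level in the DCN and SCGX groups lay between those of Sham day and Sham night, with summed levels of 365.5 to 452.7 CPM in DCN day, 524.4 to 624.4 in DCN night, 506.6 to 578.5 in SCGX day and 545.3 to 560.9 in SCGX night.

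To see whether the sham operation altered the rhythm, the night/day changes were compared with those of Control rats. All 365 genes at an adjusted-p under 0.001 in Sham changed in the same direction in Control at an adjusted-p under 0.05, where 35.3% of all tested genes were called, 18.2% higher and 17.1% lower at night. At an adjusted-p under 0.05 in Sham, 3242 of the 3287 genes tested in Control (98.6%) had the same direction, 2698 (82.1%) were called in that direction and 4 were called in the opposite direction. The size of change was also close. Over the 172 strong genes the median difference between the Sham and Control log2 fold changes, taken in the direction of the call, was 0.0 with quartiles of -0.22 and 0.29. The change was larger in Sham for 86 genes, and 166 genes were within 1 log2 unit. None of the 172 differed between Sham and Control in the edgeR interaction test, whose lowest adjusted-p among them was 0.221. In that test 26 of the 172 had an unadjusted p under 0.05, a larger share than the 1290 of all 15893 genes. A missing call does not show that the 2 groups are equal. The 172 genes were chosen on Sham values that also enter the size comparison and the interaction test, so both are descriptive for them.

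More genes passed in Control than in Sham at the same thresholds. In Control 372 genes (2.38% of 15622) were strong, 296 of them higher (1.89%) and 76 lower (0.486%). Of the 296 that were higher at night there, 295 were tested in Sham and 282 of them were higher at an adjusted-p under 0.05, with a median log2 fold change of 2.74, but 146 were strong. Of the 76 that were lower, 75 were tested and 47 were lower in Sham at an adjusted-p under 0.05, with 14 strong. Without night replicate 3 these 4 counts were 284, 170, 54 and 15. Over all genes tested in Sham, 9.35% were higher at an adjusted-p under 0.05 and 0.953% were strong and higher. The shares that were lower, and strong and lower, were 11.2% and 0.118%. Without night replicate 3 the 4 shares were 11.6%, 1.21%, 7.74% and 0.126%. Among the genes strong in Control, which were chosen on Control values, 1 was called in the opposite direction in Sham. The part of the wider spread of the Sham libraries in the smaller number of strong genes was not tested.

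The interaction test found 2 of 15893 genes (0.0126%) whose night/day change differed between Sham and Control at an adjusted-p under 0.05, and 1290 had an unadjusted p under 0.05. Neither was a strong Sham gene, and both are described in the closing section. DESeq2 called 39 genes in the same comparison, and edgeR called 23 without Sham night replicate 1 and 5 without Sham night replicate 3.

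The Sham rhythm was larger than that of the DCN and SCGX glands. In DCN glands no gene of 15928 passed an adjusted-p of 0.05 by edgeR (1431 had an unadjusted p under 0.05), and in SCGX glands 287 of 15551 (1.85%) did. The common coefficient of variation was 20.1% in DCN and 9.2% in SCGX, so these 2 counts do not rank the groups by remaining rhythm. Of the 150 strong Sham genes that rose and were tested in DCN, 126 were above 0 there, with a median log2 difference of 0.36. In SCGX, 62 of 152 were above 0 with a median of -0.08, and 2 were called higher and 12 lower at night, where 1.02% and 0.83% of all tested genes were called. The 19 genes that fell in Sham had medians of -0.16 in DCN and 0.03 in SCGX, and none was called. To test the difference without choosing genes on Sham values, the genes strong in Control were taken. For those higher at night, 241 of 295 (81.7%) had a larger change in Sham than in DCN at an interaction adjusted-p under 0.05 by edgeR, and 273 of 294 (92.9%) a larger change in Sham than in SCGX. Over all tested genes 11.2% and 18.5% passed in either direction. For those lower at night, 37 of 75 and 41 of 76 fell more in Sham, and 1 differed the other way against SCGX.

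In DCN and SCGX glands not every strong gene was at the Sham day level. The 104 longer strong genes summed to 5649 to 5747 CPM in the 3 Sham day libraries and 41270 to 53770 in the night libraries. In SCGX day they summed to 9521 to 12700, above all Sham day libraries, and in DCN day to 5205 to 6218. ENSRNOG00000011182 was an extreme case, with 10.6 to 14.8 CPM in Sham day, 115 to 178 in DCN day and 432 to 705 in SCGX day, beside 2030 to 2650 in Sham night. ENSRNOG00000012878 was at 4.55 to 8.77 in Sham day, 2.86 to 8.87 in DCN day and 30.2 to 64.5 in SCGX day. The gene ENSRNOG00000008942, which fell, was intermediate as well. It was at 37.1 to 89.1 in Sham day, 3.82 to 6.02 in SCGX day and 1.34 to 2.03 in Sham night. Within the DCN and SCGX groups day and night ranges of these genes lay close together or overlapped. These levels across groups were not tested. In whole glands, fewer cells of a type and less RNA per cell cannot be told apart.

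The strong Sham genes mostly responded to NE and DBcAMP in culture. Of the 152 strong genes that rose and were tested in the cultures, 147 were higher with NE and 145 with DBcAMP at an adjusted-p under 0.05, and 1 was lower with each. Over all genes tested there, 14.2% were higher with NE and 19.4% with DBcAMP. The median log2 fold changes were 1.63 and 1.51, beside 2.86 for the same genes in Sham, where they had been chosen. Of the 18 tested genes that fell, 13 fell with NE and 12 with DBcAMP, where 16.1% and 22.5% of all genes were lower, and 2 rose with each agent. Among the genes that rose, those with larger night/day changes in Sham had larger medians in culture. The 98 genes that rose 2- to 4-fold at an adjusted-p under 0.001 had medians of 0.86 with NE and 1.02 with DBcAMP, and the 25 that rose over 16-fold, 24 of them tested in culture, had 3.22 and 3.18. The genes that fell did not follow this order. Their medians with NE and DBcAMP were -1.09 and -1.24 for the 11 genes that fell 4- to 8-fold and -0.91 and -0.07 for the 3 tested genes that fell over 16-fold.

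Read from the cultures to the gland, the response also held for most but not all genes. Of the 113 genes strongly raised by NE (0.742% of genes tested there), 108 were tested in Sham, with a median log2 fold change of 2.85. At an adjusted-p under 0.05, 88 of the 108 were higher and 1 was lower at night. The shares over all genes tested in Sham were 9.35% higher and 11.2% lower. Of the 200 genes strongly raised by DBcAMP (1.32%), 170 were tested, 109 were higher and 3 lower, and the median was 2.03. Of the 11 genes strongly lowered by NE (0.0723%), 10 were tested and 5 were lower at night, with a median of -2.15. Without night replicate 3 these medians were 3.0, 2.13 and -1.88.

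The named genes varied in their culture response. ENSRNOG00000011182 rose with NE by 6.49 ± 0.13 (log2 fold change ± SE) and with DBcAMP by 6.04 ± 0.14, beside 7.45 ± 0.21 at night in Sham. ENSRNOG00000012878 rose by 3.17 ± 0.08 and 2.33 ± 0.11, beside 7.88 ± 0.32 in Sham. ENSRNOG00000008942 changed by -5.18 log2 units in Sham and by -5.46 in Control, but had -0.91 ± 0.14 with NE (edgeR adjusted-p 0.000151) and -0.07 ± 0.16 with DBcAMP (edgeR adjusted-p 0.766). ENSRNOG00000025698 was too low to be tested in culture.

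**Figure D4:**
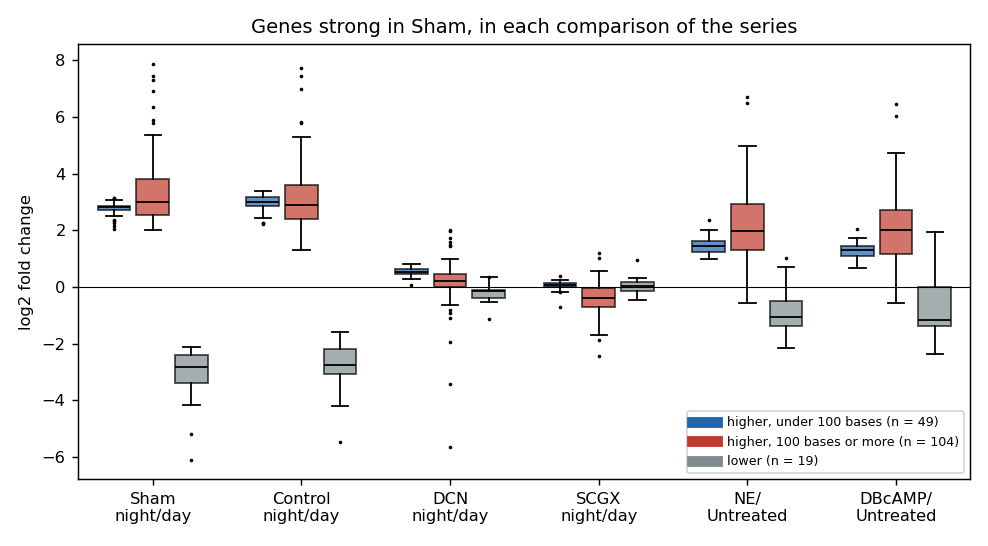
Log2 fold changes of the strong Sham genes in each comparison, as boxes (median and quartiles, whiskers to 1.5 times the interquartile range, points beyond) for 49 short and 104 longer genes that rose and 19 that fell; NE and DBcAMP share the Untreated libraries. The Sham boxes describe the selection itself, Control lies at similar values, DCN and SCGX lie near 0, and the cultures lie between.

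Genes enriched in tissues other than the pineal gland were raised in Sham night replicate 3. As a gauge, 1798 genes were taken that were over 8 times higher in the study's mixed-tissue library than in both of its single pineal libraries, with a mean normalized count over 30. The mixed-tissue library was a pool of RNA from brain regions, retina, pituitary and other organs. Their summed level was 12470 CPM in night replicate 3 and between 2514 and 3834 in the other 5 Sham libraries, a ratio of 4.53 to their median. With genes over 32 times higher in the mixed tissue the ratio was 9.08. Among the other in vivo libraries DCN day replicate 1 was also raised, at 9017, and the rest were between 2159 and 3834. The summed level of 179 genes enriched in the pineal gland was 49600 in night replicate 3 and 53390 to 62910 in the other Sham libraries. The marker genes of single cell types were not analysed here, so the source tissue is not named.

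**Figure D5:**
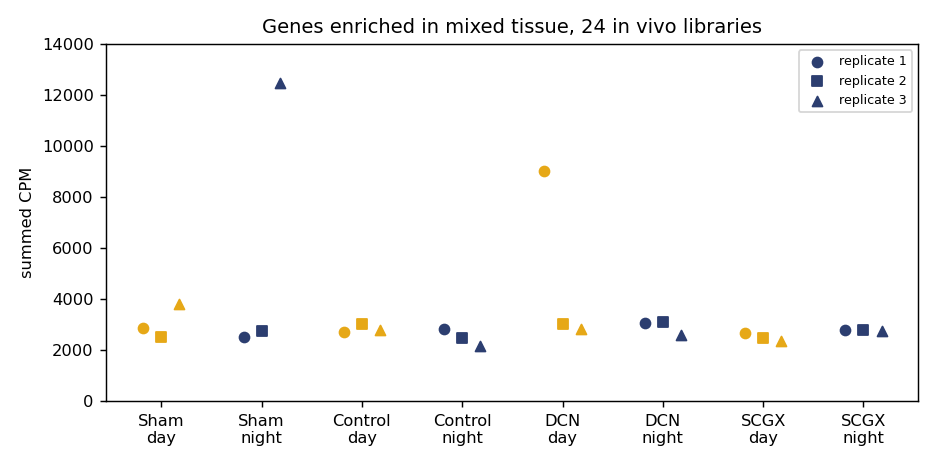
Summed CPM of 1798 genes enriched in mixed tissue, in the 24 in vivo libraries by group, with a point for each replicate (circle 1, square 2, triangle 3; yellow day, blue night). Sham night replicate 3 at 12470 and DCN day replicate 1 at 9017 lie above all others, the highest of which is Sham day replicate 3 at 3834.

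Among mixed-tissue genes this library moved fold changes but few were called. There were 429 genes of at least 1 CPM that were over 4 times higher in night replicate 3 than in every other Sham library, and 351 of them (81.8%) were mixed-tissue genes. Only 1 and 5 genes stood out in this way in night replicates 1 and 2. Of the 429, 389 were tested, 4 passed an adjusted-p of 0.05 and none was strong, where 20.6% and 1.07% of all tested genes did so. The 429 were chosen for a wide spread among the night libraries, which makes a call unlikely, so these counts are descriptive. The 979 tested mixed-tissue genes had a median log2 fold change of 0.85 at night, which reversed to -0.26 without the library, but 20 were called higher and 12 lower (3.27%, against 20.6% of all genes). Altogether 578 genes were over 4-fold higher at night by the estimate, and 264 of these did not pass an adjusted-p of 0.05. In 246 of the 264 the highest night level was that of replicate 3, and 225 of the 264 were mixed-tissue genes.

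Day replicate 3 stood apart in a smaller number of genes. It held 122 genes that were over 4 times higher than in every other Sham library, against 14 and 12 for day replicates 1 and 2, and 27.9% of them were mixed-tissue genes. The 2 most abundant of these reached 6400 and 3260 CPM, beside 758 to 1190 and 215 to 490 in the other 5 Sham libraries. Of the 122, 107 were tested and none passed an adjusted-p of 0.05, but they were chosen for a wide spread among the day libraries, which makes a call unlikely. Of the 103 genes that were over 4-fold lower at night without passing, 85 were highest in day replicate 3. Without day replicate 3, 30 genes were strong, 28 of them higher at night.

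Among the strong genes that rose, the median change was slightly smaller in night replicate 3 than in the other night libraries. The strong genes were chosen by a fit that includes this library, so its values in them are descriptive. Relative to the day mean, the median of the 153 genes that rose was 2.79 log2 units in night replicate 1, 3.01 in replicate 2 and 2.65 in replicate 3. Replicate 3 was the lowest of the 3 night libraries in 102 of the 153 genes, and the share over all genes was not analysed here. For the 19 genes that fell the medians were -2.84, -2.76 and -2.80. Leaving the library out added 38 strong genes that rose, all of which had passed an adjusted-p of 0.05 with it. In these 38 its level was typically 0.52 log2 units below the other night libraries. Their choice depends on that level, so this value is descriptive as well. At an adjusted-p under 0.05 leaving it out added 381 and removed 39 genes that rose, and it added 157 and removed 735 genes that fell. The part of the mixed-tissue genes in these shifts was not tested.

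Genes enriched in the pineal gland were called often, in both directions. Of 177 tested genes that were over 8 times higher in both single pineal libraries than in the mixed tissue, 33 were higher and 41 lower at night at an adjusted-p under 0.05 (41.8%, against 20.6% of all genes), and 7 and 1 were strong. Their median log2 fold change was -0.17. Without night replicate 3 the counts were 40 higher and 31 lower and the median was -0.03, so that the direction with more calls turned.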

How the data were processed

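Total RNA depleted of ribosomal RNA was sequenced with strand information. The authors aligned the reads to rn4 by RNA-STAR (version 2.3.1y in the submitters' processing notes) and used QoRTs with the union rule of HTSeq to obtain counts of read-pairs on each Ensembl gene, leaving out pairs on more than 1 gene. The deposited counts are raw, with 1 table for each library. RPKM values, made by the authors from these counts and the gene lengths, were used here to recover gene lengths and to rank genes by level, and were not tested.

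Groups follow the labels. For the 6 Sham libraries, edgeR 4.0.16 (R 4.3.3) was run with TMM, its quasi-likelihood test at default settings and Benjamini-Hochberg adjustment. Genes under a mean of 5 normalized counts were not tested. Control, DCN, SCGX, NE and DBcAMP comparisons and the interactions of group and time were fitted in the same way on their own libraries. The members and lists were chosen with earlier results of these data known. The gene length class, the Sham against DCN and SCGX interactions and the class values without night replicate 3 were added after the data were seen. Alternatives were DESeq2 1.42.0, limma 3.58.1 (voom with quality weights), the other form of the quasi-likelihood estimate, other scalings and filters, all 24 in vivo libraries in 1 model, a replicate block and leaving out each library. Python 3.11.15 was used for summaries.

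Named genes are those with the largest changes among genes at an adjusted-p under 0.001, a mean of at least 20 normalized counts and groups that do not overlap, limited to 2 that rose and 2 that fell. None of the 29516 identifiers matched the RefSeq gene table used here, so named gene lists, cell type markers, promoters and positions were not analysed here. Nothing says that pools are separate litters, so p-values measure the spread between these pools. An exact permutation test of 3 against 3 gives at least p = 0.1, so single genes rest on the models across all genes. On simulated counts with the spread of the Sham libraries, edgeR on 15789 genes recovered 65.3% of genes changed by 1.5 log2 units and 87.3% of those changed by 2.5 at an adjusted-p under 0.05, with 12 false calls. The simulation changed 98 and 102 genes at these sizes, fewer than the 3304 called in Sham at that threshold. It gave every library the same spread for a gene, whereas night replicate 3 stood apart in the data. These shares need not hold for the Sham comparison.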

Additional observations from a re-analysis of the deposited data

Results flagged for a closer look

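The night/day change of 2 genes differed between Sham and Control rats by the edgeR interaction test, which is what singles them out here. Both were looked at after their values were seen.

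The first is a low gene whose log2 fold change was 3.64 ± 0.29 (SE) higher in Sham than in Control (edgeR adjusted-p 0.0009). In Sham its level was 4.99, 5.76 and 5.62 CPM (read-pair counts scaled to library size) by day and 4.43, 6.34 and 5.02 at night (log2 fold change -0.12, adjusted-p 0.754). In Control it was at 4.81, 4.51 and 5.09 by day and 0.403, 0.347 and 0.363 at night. Its levels in the other in vivo libraries also fell into 2 ranges, but not by time: DCN day replicate 3 had 0.498 and DCN night replicate 3 had 0.644 while the other 4 DCN libraries had 3.79 to 6.68, and SCGX day libraries and SCGX night replicate 3 had 0.428 to 0.878 while the other 2 SCGX libraries had 5.61 and 5.92. The adjusted-p was 0.261 when all 24 in vivo libraries shared 1 model and 0.0551 with the replicate block, and the gene was not tested under the filter of 10 read-pairs in every library.

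The second changed in opposite directions, with an interaction of -3.56 ± 0.33 log2 units (edgeR adjusted-p 0.00179). In Sham it went from 74.0, 123 and 92.9 CPM by day to 51.8, 44.0 and 36.7 at night (log2 fold change -1.20, adjusted-p 0.00707). In Control it went from 15.5, 14.5 and 9.89 to 85.1, 78.2 and 55.3. Single DCN and SCGX libraries ranged from 13.3 to 105, DCN day replicates alone from 33.0 to 105. The adjusted-p was 0.117 with all 24 libraries in 1 model. In the first gene, pools of one group and time differed about as much as night and day did in Control. In the second they differed less, and the cause was not tested in either.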

How the results depend on the processing

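The number of strong genes, 172, was 338 with DESeq2, 365 with all 24 in vivo libraries in 1 model and between 23 and 211 when 1 library was left out (38 without day replicate 1, 23 without day replicate 2, 30 without day replicate 3, 100 and 83 without night replicates 1 and 2, and 211 without night replicate 3). The other scalings, filters, voom and the other quasi-likelihood form gave 171 to 218. The number at an adjusted-p under 0.001, 365, was 1770 with DESeq2, 713 with voom, 2342 with all 24 libraries and 23 to 414 with 1 library left out. At an adjusted-p under 0.05 the 3304 genes were 5567 with all 24 libraries and 1671 to 3068 with 1 left out. The strong genes also called in Control, 172, were 335 with DESeq2, 352 with all 24 libraries and 23 to 211 with 1 left out. Interaction genes, 2, were 39 with DESeq2, 4 with the other quasi-likelihood form, 1 under the filter of 10 read-pairs and 2 to 23 with 1 library left out. The coefficient of variation was 22.3% under that filter, 18.4% with all 24 libraries and 19.7% to 31.0% with 1 left out. Leaving out a library leaves fewer samples; otherwise the cause was not tested. The median of the mixed-tissue genes reversed to -0.26 without night replicate 3, and the gauge of mixed tissue moved from 4.53 to 9.08 with the stricter genes.

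The labels do not say whether the replicate numbers pair the samples. Same-numbered day and night libraries had correlations of -0.202, 0.019 and 0.103, and differently numbered ones ranged from -0.192 to 0.248. With 3 pools in each group these values cannot decide whether the samples are paired. With the number as a replicate block there were 39 genes at an adjusted-p under 0.001, 38 strong genes, 38 of them also called in Control, 2209 at an adjusted-p under 0.05 and 1 interaction gene.

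The 4 named genes kept their direction under every alternative that was run. The 2 that rose also stayed at an adjusted-p under 0.001 in all 15, while ENSRNOG00000025698 lost that threshold in 7 of 14 and ENSRNOG00000008942 in 7 of 15, at adjusted-p values of at most 0.00782 and 0.00604. Promoter motifs were not run, since no identifier matched. Of the 4013 least abundant genes 5.48% passed an adjusted-p of 0.05, and the part of depth in this share was not tested.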

Other observations

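Of the genes over 4 times higher in Sham night replicate 3 than in all other Sham libraries, 236 were also over 4 times higher in DCN day replicate 1 than in all other DCN libraries. This is 55.0% of the 429 genes of the Sham library and 67.2% of the 351 genes of the DCN library, although the pools came from different operations and opposite times of day. Both libraries also led the mixed-tissue gauge.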
